A study of Mus musculus with 9 samples.

Results

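Circular DNA of adult mouse hearts was compared with that of hearts shortly before birth. The adult group held 3 Circle-seq libraries from 8-week-old mice (8w) and the embryonic group 3 libraries from embryonic day 18 (E18), together 6 of the 9 libraries of the series. The other 3 libraries, of postnatal day 3 (3d), entered only the shared estimates of spread and the question of whether a circle was also found elsewhere. All mice were wild-type C57BL/6J. Heart is the labelled tissue, while the fields for cell line and cell type name cardiocytes, a term for heart cells, and which of these was lysed cannot be read from the labels. Neither sex nor the count of animals pooled per library is stated there, and since the libraries hold DNA, no RNA marker could be set against the labelled cell type. Libraries of a stage are labelled as biological replicates, and p-values here measure the spread between them.

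Extrachromosomal circular DNA (eccDNA) consists of stretches of chromosomal DNA that have been cut out or copied and closed into rings. Small rings are common in normal tissues, their lengths often follow the wrapping of DNA around nucleosomes, and they have been linked to DNA breakage, repair and cell death. Most are too short to carry a gene, while larger ones can hold promoters or whole genes.

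Split reads, which cross the junction where a ring closes, identify each circle. They numbered 846374, 63710 and 186129 in E18 replicates 1 to 3 and 11377, 194280 and 67182 in 8w replicates 1 to 3. The number of distinct circles was 35273, 9039 and 10485 at E18 and 3931, 14721 and 6645 at 8w, so both depth and number overlapped between the stages. The 8w to E18 ratio of mean circle numbers was 0.462 on the linear scale and -1.12 on the log2 scale, and its exact two-sided permutation p was 0.4. Leaving out E18 replicate 1 gave a linear ratio of 0.864, and leaving out 8w replicate 2 gave 0.290. A division of 3 libraries against 3 cannot give a p below 0.1, so no value measured once per library can pass 0.05 here, and what is reported is the size of a difference, the spread and whether the groups overlap. The 6 libraries held 75096 distinct circles, 50.2% of the 149584 in the series. At full depth 8w replicate 1 stood apart, with a single split read behind 60.5% of its circles. In the other 5 libraries this share was 6.21% to 16.7%. With all libraries thinned to the 11377 split reads of 8w replicate 1, the shares were 73.9%, 50.01% and 49.5% at E18. At 8w they were 60.5%, 59.9% and 38.1%, so 8w replicate 1 then lay within the range of the other libraries. The lengths and gene share of 8w replicate 1 are also given for circles with more reads.

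The most common circle length was about 90 bp in adult and about 360 bp in embryonic hearts. Below 250 bp the highest peak of the smoothed length distribution lay at 201, 200 and 200 bp in the E18 libraries and at 90, 89 and 90 bp in the 8w libraries. Circles of 86 to 95 bp made up 1.54%, 2.12% and 1.35% of the E18 libraries and 7.10%, 9.46% and 23.9% of the 8w libraries. The lowest adult share was thus above the highest embryonic share, and the ratio of means was 8.05 (exact two-sided permutation p = 0.1), or 4.95 without 8w replicate 3. These peak measures were chosen after the lengths had been seen.

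The short circles of both stages came in steps of the same size. After a running mean was removed from the counts at 70 to 220 bp, the autocorrelation of the length distribution was highest at a shift of 11 bp in each of the 6 libraries, among shifts of 5 to 15 bp. It reached 0.571, 0.496 and 0.419 at E18 and 0.259, 0.551 and 0.355 at 8w, and at a shift of 5 bp it was below 0 in all 6, from -0.654 to -0.358. The groups overlapped, so the stages differed in which steps were filled, and the strength of the pattern did not separate them. A helical turn of DNA takes a similar number of base pairs, as background.

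**Figure D1:**
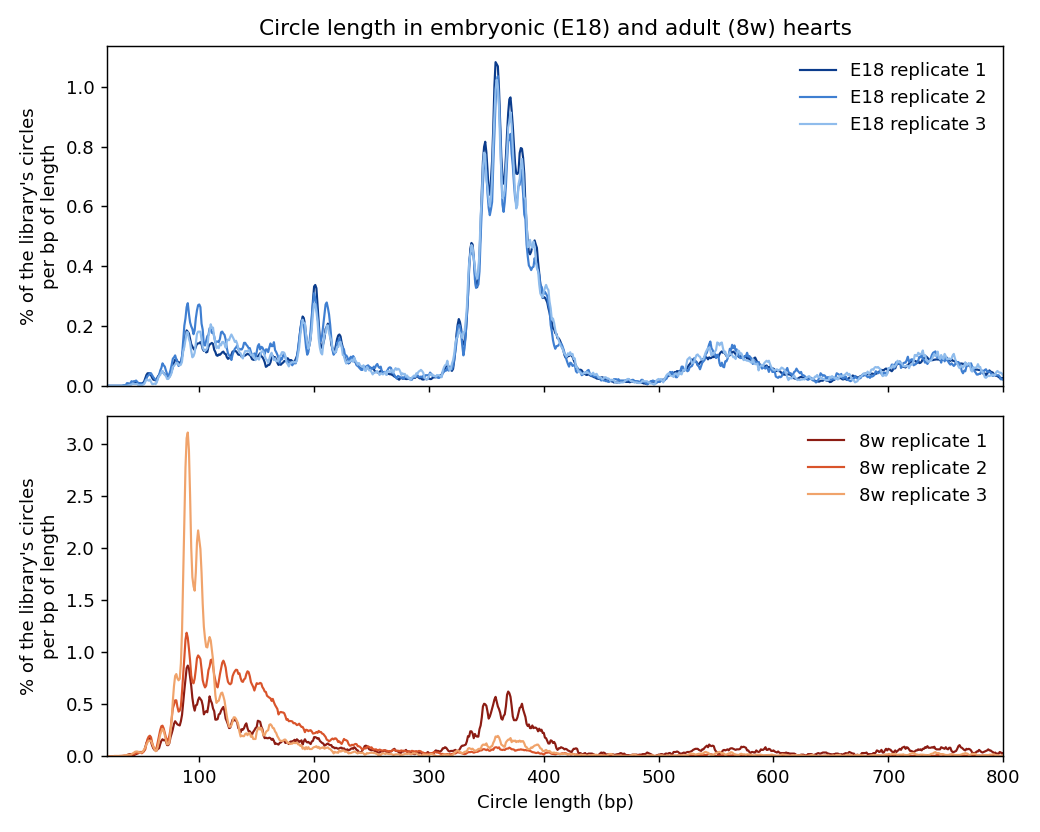
Length distribution of circles in the 3 E18 libraries (top) and the 3 8w libraries (bottom), as the percentage of a library's circles per bp of length after 5-bp smoothing, with a separate vertical scale for each panel. The E18 libraries peak at 358 to 360 bp with a smaller set of peaks around 200 bp, and the 8w libraries are highest at 89 to 90 bp.

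By class, adult hearts had more of the circles under 250 bp and fewer of those from 250 bp up. Circles of 80 to under 250 bp made up 20.2%, 23.8% and 20.9% of the E18 libraries (21.6 ± 1.93%, SD, n = 3) and 41.8%, 82.8% and 77.2% of the 8w libraries (67.3 ± 22.2%). Circles under 80 bp made up 1.17%, 1.46% and 0.868% at E18 and 4.22%, 6.34% and 6.19% at 8w, a ratio of means of 4.78. Each adult library exceeded each embryonic library in both classes.

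Circles of 250 to 450 bp, the length of a pair of nucleosomes with their linkers, differed the other way. Their share was 53.0%, 48.5% and 51.7% at E18 and 31.8%, 7.96% and 10.02% at 8w. For circles over 450 to 650 bp it was 9.74%, 10.001% and 10.4% against 7.56%, 1.13% and 2.39%, and for those over 650 to 1000 bp 11.2%, 10.9% and 11.96% against 9.84%, 1.196% and 2.74%. These 5 classes did not overlap between the stages, while circles over 1 to 2 kb and over 2 kb did. The exact permutation p of each of the 5 was 0.1 and its Benjamini-Hochberg adjusted value over 7 classes 0.14.

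8w replicate 1 was closest to the embryonic libraries in every class from 250 bp up. It lay next to the other adult libraries once circles with few reads or circles of other libraries were left out. Among circles found in 1 of the 9 libraries, the share of 80 to under 250 bp was 20.2%, 23.7% and 20.6% at E18 and 75.3%, 88.0% and 89.7% at 8w. The median length of these circles was 368, 364 and 368 bp at E18 and 123, 131 and 99 bp at 8w, against 369, 366 and 369 bp and 331, 135 and 103 bp for all circles. With at least 5 split reads per circle the medians were 369, 361 and 370 bp against 118, 130 and 98 bp, with all 3 adult libraries far below the embryonic ones. This minimum kept only 729 of the 3931 circles of 8w replicate 1. It kept 11912 of 14721 in 8w replicate 2 and 4590 of 6645 in 8w replicate 3.

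**Figure D2:**
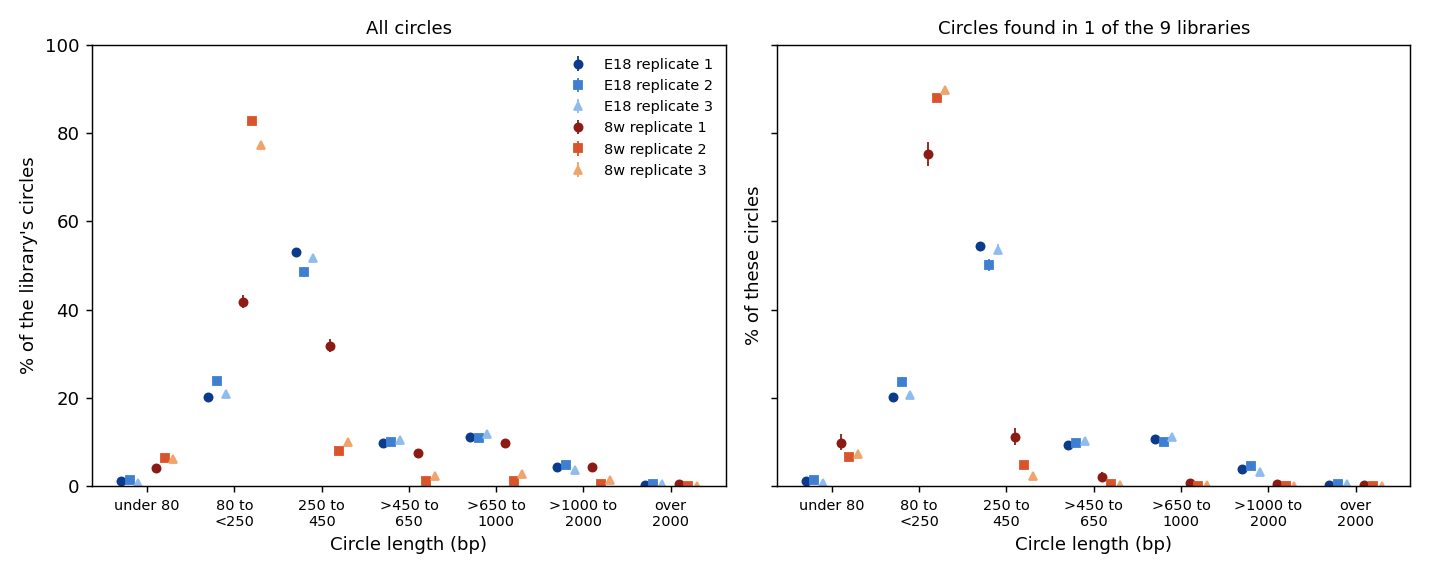
Share of circles in 7 length classes for each library, for all circles (left) and for circles found in 1 of the 9 libraries (right), with Wilson 95% intervals that cover counting error only. The point of 8w replicate 1 for circles of 80 to under 250 bp moves from 41.8% to 75.3%, next to the other adult libraries.

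In numbers rather than shares, the stages separated from 250 bp up and overlapped below. Circles under 250 bp numbered 7532, 2285 and 2281 at E18 and 1810, 13125 and 5539 at 8w. Between 250 and 450 bp the E18 libraries held 18687, 4381 and 5424 circles and the 8w libraries 1251, 1172 and 666, a ratio of means of 0.108, or 0.210 without E18 replicate 1. Every embryonic library thus held more of these than every adult library, also where it had fewer split reads, as E18 replicate 2 with 63710 against 194280 in 8w replicate 2. The exact permutation p was 0.1 (adjusted 0.14 over the classes).

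Longer circles of adult hearts were counted mostly by a single read. Over 650 bp there were 5619, 1469 and 1685 circles at E18 and 573, 257 and 281 at 8w. With 5 or more split reads there were 4585, 724 and 1105 at E18, and 15, 32 and 18 at 8w, so the ratio of means was 0.127 over all of them and 0.0101 with 5 or more reads. Without E18 replicate 1 these ratios were 0.235 and 0.0237. A single split read stood behind 8.88%, 23.1% and 19.7% of the E18 circles over 650 bp and behind 79.4%, 79.4% and 69.0% of those at 8w. For circles of 80 to under 250 bp these shares overlapped, at 7.05%, 13.8% and 16.4% against 40.5%, 2.70% and 5.44%.

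These long circles of adult hearts were mostly known from other libraries. Of the circles over 650 bp in an adult library, 80.6%, 85.99% and 80.1% had 5 or more split reads in another of the 9 libraries, against 10.6%, 21.03% and 20.95% in the E18 libraries. Under 250 bp the shares were 39.0%, 3.51% and 7.47% at 8w and 9.07%, 15.5% and 16.8% at E18. The separation between the stages was therefore seen from 250 bp up and not below. At both stages, single-read circles of any length were mostly found in another library too. Their shares, with any number of reads there, were 77.3 ± 3.57% at E18 and 90.2 ± 7.99% at 8w (SD, n = 3). Circles of 2 or more reads had 24.2 ± 0.736% and 30.5 ± 10.1%. The comparison over 650 bp thus set mostly single-read adult circles against mostly better covered embryonic ones. Single-read circles were long at both stages, with medians of 374, 376 and 371 bp at E18 and 367, 364.5 and 370 bp at 8w. The adult values were slightly below the embryonic ones without overlap (exact permutation p = 0.1), although all circles of 8w replicates 2 and 3 had medians of 135 and 103 bp. How single reads came to lie on circles of other libraries was not tested.

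**Figure D3:**
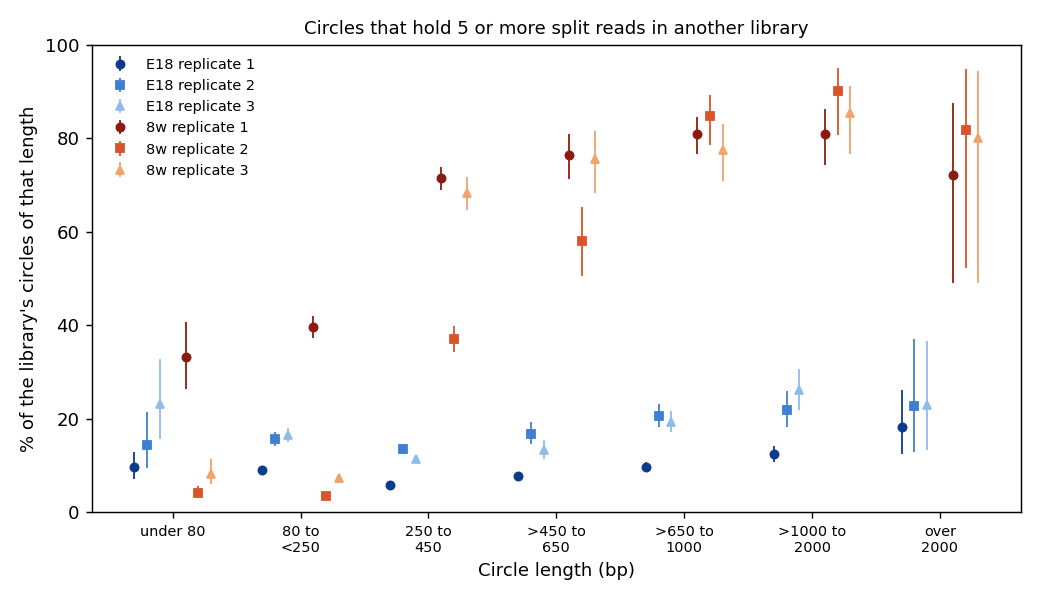
Percentage of a library's circles in each length class that hold 5 or more split reads in at least 1 other of the 9 libraries, with Wilson 95% intervals (counting error only). The adult libraries lie above the embryonic ones in the 5 classes from 250 bp up, and the groups overlap in the 2 shorter classes.

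Few circles were common to the stages. E18 libraries together held 53262 circles and 8w libraries 24518, of which 2684 were found at both, 5.04% of the embryonic and 10.9% of the adult set. Of these, 1463 had 5 or more reads only at E18 and a median length of 371 bp, 594 had 5 or more reads only at 8w and a median length of 120.5 bp, and 169 had them at both, with a median of 134 bp. The medians of 371 and 120.5 bp were near that of the stage where the circles were well covered. The median of 134 bp, for circles well covered at both, lay far below the embryonic medians. The mean Jaccard index, the circles that a pair of libraries shares as a percentage of all circles of the pair, was 1.53% within the stages and 1.23% between them. The difference was 0.302 points, and the exact one-sided permutation p of 0.1 is the smallest that 10 partitions allow. Pair values overlapped, from 0.920% to 2.23% within the stages and from 0.832% to 1.84% between them.

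Adult circles overlapped protein-coding genes less often over all lengths and in 2 of 7 length classes. Over all circles the share was 42.5%, 41.2% and 43.0% at E18 and 40.1%, 39.3% and 38.7% at 8w. Among circles of 80 to under 250 bp it was 42.7%, 39.9% and 41.6% against 39.2%, 39.2% and 38.2%, a difference of -2.54 percentage points. Among circles of 250 to 450 bp it was 42.5%, 41.2% and 43.0% against 40.6%, 40.4% and 39.9%, a difference of -1.94 points. No adult library reached the lowest embryonic library in either class (exact permutation p = 0.1, adjusted over 7 classes 0.35), and in the other 5 classes the groups overlapped. Lengths within the class of 80 to under 250 bp still differed between the stages, so its difference was not freed of length. The adult mean was the higher over 650 to 1000 bp (44.5% against 42.3%) and over 2 kb (55.7% against 55.1%), and under 80 bp the means were 39.0% and 39.1%. With 5 or more reads per circle the shares over all lengths were 42.6%, 41.5% and 43.8% against 41.4%, 38.8% and 37.6%, where 8w replicate 1 nearly reached E18 replicate 2.

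Where a circle overlapped a gene, its place in the gene differed slightly. The midpoint lay in the first of 3 equal parts of the gene, read from its start, for 33.2%, 33.5% and 33.8% of embryonic and 35.0%, 34.2% and 35.6% of adult pairs of circle and gene. Each adult share was above each embryonic share (exact permutation p = 0.1). The median span of the overlapped genes was 121, 121 and 120 kb at E18 and 94.3, 144 and 133 kb at 8w, and the groups overlapped.

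**Figure D4:**
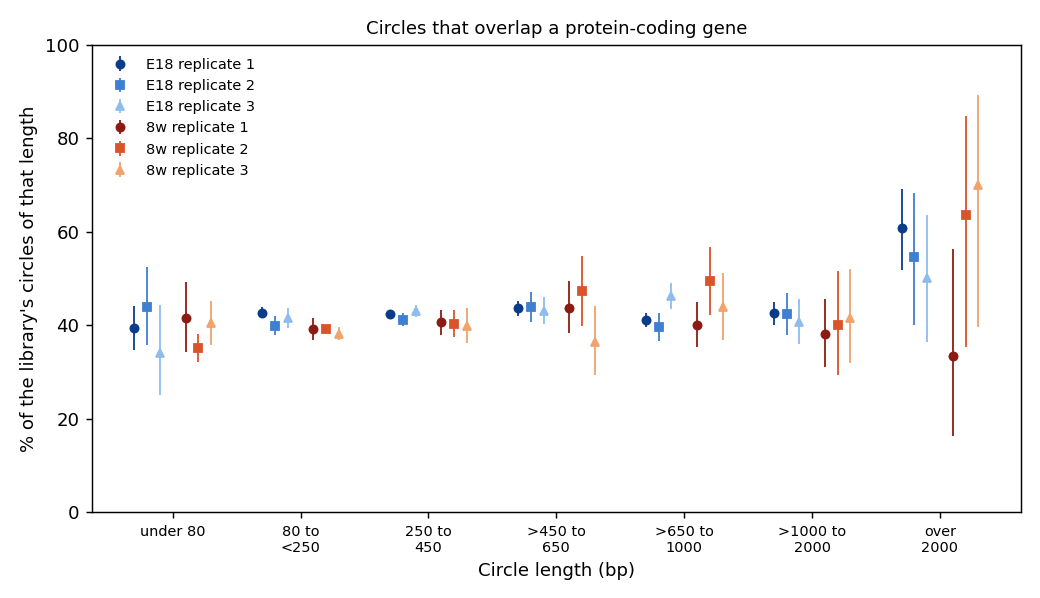
Percentage of circles that overlap a protein-coding gene, by length class and library, with Wilson 95% intervals (counting error only). The adult libraries lie below the embryonic ones at 80 to under 250 bp and at 250 to 450 bp, and the intervals widen in the classes with few circles.

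Promoters, the sequence around a gene's start where transcription begins, were found less often on adult circles over all lengths and, within classes, at 80 to under 250 bp. The windows used were the 250 bases before and 50 bases after each RefSeq gene start, 32815 windows of 27025 genes of GRCm38.p6, and circles up to 20 kb were set against them. Such a window was touched by 0.697%, 0.708% and 0.744% of circles at E18 and by 0.432%, 0.408% and 0.256% at 8w, from 246, 64 and 78 circles and 17, 60 and 17. Every adult share was below every embryonic share (exact permutation p = 0.1). A longer circle touches a window more easily, so the shares were also taken within classes, an alternative added after the data had been seen. Among circles of 80 to under 250 bp they were 0.604%, 0.464% and 0.502% against 0.182%, 0.344% and 0.117%, again without overlap, and at 250 to 450 bp 0.637%, 0.730% and 0.701% against 0.480%, 0.853% and 0.751%, with overlap. In the other 3 classes up to 1000 bp the groups overlapped and the adult mean was the higher, at 0.272% against 0% under 80 bp, 1.02% against 0.814% over 450 to 650 bp and 1.35% against 1.01% over 650 to 1000 bp. Lengths still differed within the class of 80 to under 250 bp, where the highest peak lay near 200 bp at E18 and 90 bp at 8w. The promoter difference in that class was therefore not freed of length.

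The start of a gene itself lay on 0.422%, 0.387% and 0.458% of embryonic and 0.204%, 0.183% and 0.105% of adult circles. Circles held 229 gene starts at E18 and 46 at 8w. Of these starts, 12 were common to both stages, 5.24% of the embryonic and 26.1% of the adult set. A gene can have several starts, so these are not counts of genes. The circle bases inside windows had a GC content of 49.6%, 47.6% and 48.0% at E18 and 46.1%, 50.5% and 55.4% at 8w, where all windows have 53.8%. The stages overlapped in this measure, which rests on few circles at 8w.

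The promoter windows printed next show what such circles carry. They are RefSeq sequences of GRCm38.p6, written 5′ to 3′ on the strand of the gene, and the capitals mark the bases that lie on the circle. Of the 4 gene starts that the rule named, each was held by a single circle with 42 to 219 split reads in E18 replicate 1 and 1 split read in an adult library. Tnfrsf12a, which encodes the receptor of the cytokine TWEAK, and Elf3, an ETS transcription factor of epithelia, are shown. The Tnfrsf12a circle (chr17:23677250-23677864, 615 bp, window chr17:23677400-23677699, minus strand) covers the whole window and had 132 reads in E18 replicate 1 and 1 in 8w replicate 2. The Elf3 circle (chr1:135258249-135258612, 364 bp, window chr1:135258423-135258722, minus strand) had 69 reads and 1 read in the same libraries.
Tnfrsf12a: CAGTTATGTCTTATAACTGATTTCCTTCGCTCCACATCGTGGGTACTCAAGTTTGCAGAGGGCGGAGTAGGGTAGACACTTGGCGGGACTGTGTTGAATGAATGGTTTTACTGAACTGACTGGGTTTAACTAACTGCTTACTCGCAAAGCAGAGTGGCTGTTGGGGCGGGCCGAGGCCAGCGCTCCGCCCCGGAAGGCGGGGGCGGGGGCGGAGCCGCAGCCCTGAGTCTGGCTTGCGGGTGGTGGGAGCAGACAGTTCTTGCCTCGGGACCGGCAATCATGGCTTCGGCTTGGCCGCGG
Elf3: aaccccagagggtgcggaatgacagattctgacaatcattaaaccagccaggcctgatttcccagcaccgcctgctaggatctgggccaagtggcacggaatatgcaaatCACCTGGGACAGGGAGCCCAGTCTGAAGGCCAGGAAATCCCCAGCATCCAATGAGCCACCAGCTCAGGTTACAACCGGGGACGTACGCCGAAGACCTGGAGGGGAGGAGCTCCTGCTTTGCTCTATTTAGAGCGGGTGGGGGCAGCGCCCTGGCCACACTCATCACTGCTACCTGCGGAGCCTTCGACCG
The other 2 starts were those of Pdcd1lg2, a ligand of the immune receptor PD-1 (219 reads in E18 replicate 1 and 1 in 8w replicate 2), and of Lyzl4, a lysozyme-like protein (42 reads in E18 replicate 1 and 1 in 8w replicate 1).

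Some circles were short enough to lie wholly inside a promoter window. There were 39 of them, 16 at E18 with a median of 165.5 bp and 24 at 8w with a median of 127.5 bp, and 1 was found at both. That circle lies before the start of Gm15417 (chr3:89391695-89391825, 131 bp, window chr3:89391614-89391913, plus strand) and had 19 reads in E18 replicate 1 and 2 in 8w replicate 2. The others shown were chosen after their values were seen, among the circles with the most split reads in a stage. Embryonic examples are Ttc9, a protein with tetratricopeptide repeats (chr12:81631016-81631231, 216 bp, window chr12:81630999-81631298, plus strand, 40 reads in E18 replicate 1), and Hoxa6, a homeobox transcription factor of the body axis (chr6:52208636-52208825, 190 bp, window chr6:52208623-52208922, minus strand, 9 reads in E18 replicate 1). Both are near the 200 bp peak of that stage, and Hoxa6 also had 1 read in 3d replicate 1.
Gm15417: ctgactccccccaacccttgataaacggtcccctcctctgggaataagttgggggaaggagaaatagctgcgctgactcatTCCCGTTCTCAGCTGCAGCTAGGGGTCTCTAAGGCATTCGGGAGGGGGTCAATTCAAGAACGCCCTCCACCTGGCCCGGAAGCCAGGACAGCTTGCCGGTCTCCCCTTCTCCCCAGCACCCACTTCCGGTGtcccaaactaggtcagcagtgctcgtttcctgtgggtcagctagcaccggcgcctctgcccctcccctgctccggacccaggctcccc
Ttc9: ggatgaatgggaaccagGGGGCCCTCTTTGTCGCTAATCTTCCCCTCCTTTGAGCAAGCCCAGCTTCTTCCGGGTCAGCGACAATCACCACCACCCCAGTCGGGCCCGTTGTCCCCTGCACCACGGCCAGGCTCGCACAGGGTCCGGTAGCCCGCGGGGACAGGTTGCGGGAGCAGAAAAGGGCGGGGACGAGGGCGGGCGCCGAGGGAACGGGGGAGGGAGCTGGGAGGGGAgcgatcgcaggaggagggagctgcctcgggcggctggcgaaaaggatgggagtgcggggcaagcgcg
Hoxa6: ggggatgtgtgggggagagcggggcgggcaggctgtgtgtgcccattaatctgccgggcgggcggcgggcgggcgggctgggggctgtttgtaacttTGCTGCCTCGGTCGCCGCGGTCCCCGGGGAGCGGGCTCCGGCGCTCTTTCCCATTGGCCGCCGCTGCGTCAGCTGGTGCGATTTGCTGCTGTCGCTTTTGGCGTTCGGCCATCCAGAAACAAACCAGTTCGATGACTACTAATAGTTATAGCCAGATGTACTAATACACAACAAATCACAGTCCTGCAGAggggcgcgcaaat
Adult examples are Sec23ip, a protein of export from the endoplasmic reticulum (chr7:128744629-128744724, 96 bp, window chr7:128744620-128744919, plus strand, 29 reads in 8w replicate 2), Pglyrp1, a peptidoglycan recognition protein of innate immunity (chr7:18884622-18884718, 97 bp, window chr7:18884440-18884739, plus strand, 24 reads in 8w replicate 2), and Galp, a galanin-like neuropeptide (chr7:6196946-6197073, 128 bp, window chr7:6196840-6197139, plus strand, 18 reads in 8w replicate 3). These 3 circles were seen in 1 of the 9 libraries each. The circle bases were 69.0% GC for Ttc9 and 56.8% for Hoxa6, against 49.0%, 57.7% and 42.2% for Sec23ip, Pglyrp1 and Galp, where the Galp circle holds a run of CA repeats.
Sec23ip: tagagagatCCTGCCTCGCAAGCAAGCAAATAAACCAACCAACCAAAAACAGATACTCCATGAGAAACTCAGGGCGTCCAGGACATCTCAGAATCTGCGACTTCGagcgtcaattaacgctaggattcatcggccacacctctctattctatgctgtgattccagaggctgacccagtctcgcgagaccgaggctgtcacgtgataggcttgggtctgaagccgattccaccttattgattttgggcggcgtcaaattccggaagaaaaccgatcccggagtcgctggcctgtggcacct
Pglyrp1: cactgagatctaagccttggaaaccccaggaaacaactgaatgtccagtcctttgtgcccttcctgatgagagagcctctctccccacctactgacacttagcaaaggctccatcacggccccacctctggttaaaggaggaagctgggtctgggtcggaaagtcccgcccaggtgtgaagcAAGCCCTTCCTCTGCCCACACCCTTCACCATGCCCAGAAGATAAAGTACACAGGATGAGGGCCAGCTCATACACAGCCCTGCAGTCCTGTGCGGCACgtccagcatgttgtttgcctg
Galp: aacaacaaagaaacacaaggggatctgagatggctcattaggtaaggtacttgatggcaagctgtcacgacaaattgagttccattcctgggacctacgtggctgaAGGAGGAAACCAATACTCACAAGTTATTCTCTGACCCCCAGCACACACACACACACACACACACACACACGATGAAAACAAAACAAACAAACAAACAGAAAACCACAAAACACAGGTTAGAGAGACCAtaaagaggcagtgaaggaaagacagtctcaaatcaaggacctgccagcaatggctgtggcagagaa

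Circles that hold a whole protein-coding gene numbered 22, 5 and 4 at E18 and 2, 1 and 1 at 8w. The longest circle of a library spanned 9.95, 8.72 and 9.03 Mb at E18 and 8.69 Mb, 4341 bp and 5.39 Mb at 8w. At E18 the whole genes with the most reads were Kynu, an enzyme of tryptophan breakdown, and Lrp1b, a lipoprotein receptor, on a circle of 4674091 bp with 548 split reads, all in replicate 1. Next were Cep192, Ptpn2 and Seh1l on a circle of 335166 bp with 269 reads, again all in replicate 1. At 8w, 2 circles with 2 or more reads held a whole gene. Gm10197 lay on a circle of 871 bp with 13 reads in replicate 2, and 14 genes lay on a circle of 4057365 bp on chromosome 11 with 6 reads in replicate 1, which had 23 reads in E18 replicate 3. A junction shows that both ends of such a span are joined, not that the whole span was sequenced.

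Chromosome shares differed little. Of 21 chromosomes, 6 (28.6%) did not overlap between the stages. Chromosomes 4, 11, 14 and 19 had lower and 17 and X higher shares at 8w, by -0.44, -0.36, -0.35, -0.33, 0.36 and 0.80 percentage points. With at least 5 split reads per circle, chromosome 14 was higher at 8w instead, by 0.169 points. The X chromosome held 3.87%, 3.16% and 4.29% of circles at E18 and 4.78%, 4.38% and 4.58% at 8w, the largest of these differences. The exact permutation p of the 6 was 0.1 and the adjusted value over 21 chromosomes 0.35. The sex of the animals, which sets the number of X chromosomes, is not given in the sources used here.

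In windows of 5 Mb, few differences in circle density between the stages passed the test. Midpoints of circles were counted in each window, without weighting by reads, scaled by the library's number of circles and tested in 535 windows with edgeR's quasi-likelihood test. The log2 change from E18 to 8w had a 5th percentile of -0.56 and a 95th of 0.48, and 9 windows differed by more than 1 in size. Adjusted p-values under 0.05 were found in 2 windows (0.374%), 1 in each direction (0.187%). An unadjusted p under 0.05 was found in 48 (8.97%), 21 higher (3.93%) and 27 lower (5.05%). On simulated counts for the same windows the test recovered 98 of 100 windows raised by a factor of 2 and 72 of 100 lowered by it. It also called 2 unchanged windows. The 100 raised and 100 lowered windows were far more changes than passed here, which eases the adjustment. Recovery where few windows change was therefore not measured.

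The last window of chromosome 19 fell at 8w. Between chr19:60025628-61308271 there were 29, 8 and 3 circles at E18 and 1, 0 and 0 at 8w, which is 6.64 ± 3.29 against 0.848 ± 1.47 per 10000 circles (SD, n = 3). Scaled to the library, 8w replicate 1 (1 of 3931 circles) came near E18 replicate 3 (3 of 10485), though the groups did not overlap. The ratio of summed densities was 0.0542 with an exact 95% counting interval of 0.00134 to 0.320, and the fitted log2 change was -4.00 (SE 0.88, edgeR adjusted p = 0.00289). Of the genes there, Grk5, a kinase that silences G protein-coupled receptors and is strongly expressed in heart, had 7 circles at E18 and 0 at 8w. Cacul1, which bears on the cell cycle, had 2 and 1, and Prdx3, a mitochondrial peroxidase, 2 and 0.

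A window of chromosome 7 rose at 8w. Between chr7:85006953-89993833 there were 49, 11 and 15 circles at E18 and 9, 35 and 23 at 8w, which is 13.5 ± 1.13 against 27.1 ± 6.53 per 10000 circles, with every adult library above every embryonic one. The log2 change was 0.95 (SE 0.25, edgeR adjusted p = 0.0487). Its genes include Grm5, a glutamate receptor (6 circles at E18 and 8 at 8w), Tmem135, a membrane protein linked to mitochondria and peroxisomes (5 and 5), and Nox4, an oxidase that makes hydrogen peroxide (5 and 3). With TMM factors the call was kept, and in the other alternatives for this window it was lost. The adjusted p was 0.0569 to 0.356 leaving out single libraries with edgeR, 0.0833 with the 6 libraries alone, 0.137 with a minimum of 2 split reads, 0.225 with the replicate block and 0.212 with DESeq2. For the chromosome 19 window it was 0.356 without E18 replicate 1, 0.278 without 8w replicate 2, 0.0651 without 8w replicate 3, 0.110 with the replicate block and 0.212 with DESeq2.

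**Figure D5:**
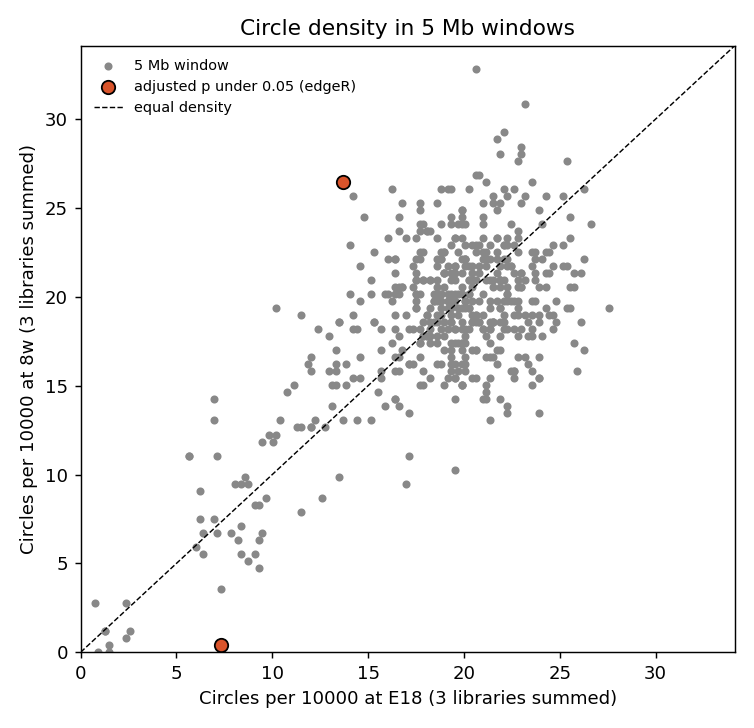
Circles per 10000 in each of 535 windows of 5 Mb, summed over the 3 E18 libraries (horizontal axis) and the 3 8w libraries (vertical axis), with a dashed line for equal density. The 2 windows with an edgeR adjusted p under 0.05 are marked, and the others scatter around the line.

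Among the other 8 windows named by p, none passed. The higher ones at 8w included a window of chromosome 1 at 110000001 to 115000000 with the cadherin genes Cdh7 and Cdh19 (51, 15 and 12 circles against 12, 40 and 13, log2 change 0.85, SE 0.25, edgeR adjusted p = 0.153), where 8.21% of circles overlapped a gene. The lower ones included a window of chromosome 14 at 30000001 to 35000000 with the calcium channel gene Cacna1d (81, 26 and 24 circles against 5, 17 and 12, log2 change -0.83, SE 0.27, edgeR adjusted p = 0.197), where 65.6% did. The window of chromosome 9 at 85000001 to 90000000 had 19.96 ± 0.995 circles per 10000 at E18 and 10.3 ± 0.203 at 8w. Its log2 change was -0.92 (SE 0.31, edgeR adjusted p = 0.197), and the libraries did not overlap. The others are given by their first base. Higher at 8w were X at 15000001 with 37, 11 and 8 circles against 8, 26 and 15, chromosome 5 at 110000001 with 75, 16 and 22 against 14, 31 and 38 and chromosome 7 at 5000001 with 24, 7 and 7 against 9, 17 and 10. Their log2 changes were 0.92, 0.70 and 1.037 (edgeR adjusted p = 0.197, 0.197 and 0.237). Lower were chromosome 11 at 115000001, with the splicing factor gene Rbfox3, with 100, 21 and 21 against 10, 16 and 14 and chromosome 7 at 140000001, with the potassium channel gene Kcnq1, with 80, 17 and 25 against 6, 16 and 12. Their log2 changes were -0.70 and -0.72 (edgeR adjusted p = 0.330 and 0.363).

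On the X chromosome, 24 of 33 windows were above 0 with a median of 0.19, against 49.2% of all windows and a median of -0.01.

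Gene-poor windows held a slightly larger share of circles at 8w. Windows were put in 4 groups of nearly equal size by the percentage of their bases inside RefSeq protein-coding genes, which was done after the data had been seen. The group with the least gene sequence (0.318% to 25.2% of bases) held 20.1%, 19.9% and 19.7% of circles at E18 and 20.7%, 21.6% and 20.4% at 8w. The next group held 24.5%, 24.1% and 24.7% against 24.96%, 26.1% and 25.5%. In the third group (39.9% to 51.2% of bases) the shares were 27.0%, 27.2% and 27.5% against 25.6%, 25.5% and 26.8%, and in the fourth 28.4%, 28.8% and 28.1% against 28.7%, 26.8% and 27.3%. The stages did not overlap in the first 3 groups (exact permutation p = 0.1) and overlapped in the last. Across the 535 windows, which share their libraries, the log2 change and the gene cover had a Pearson r of -0.04 and a Spearman rho of -0.20, given as a description.

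Circles of 9192 genes were found at E18 and of 5294 genes at 8w, with 3920 in common, 42.6% of the embryonic and 74.0% of the adult set. These gene numbers were not scaled to the number of circles at each stage. No single gene passed the test of the number of circles that overlap it. The test took the 2174 genes whose circles added up to 10 or more across all libraries. Of these edgeR called 0 (0.0%), while 139 (6.39%) had an unadjusted p under 0.05, 55 higher (2.53%) and 84 lower (3.86%) at 8w. DESeq2 called 0, with 35 at an unadjusted p under 0.05. Counts per gene were low, with a median of 5 circles at E18 and 2 at 8w. On simulated counts for these genes the test recovered 23 of 100 genes raised and 0 of 100 lowered by a factor of 4, and 92 and 4 by a factor of 8. Of genes lowered by a factor of 64 it recovered 9 of 100. Decreases of single genes of any size tried, and increases by a factor of 2 (0 of 100 recovered), were thus hardly detectable at this depth. Here too 100 genes were raised and 100 lowered in a run, so recovery where few genes change was not measured.

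The genes with the smallest p are given as values. Higher at 8w was Nell1, a secreted protein of bone formation on chromosome 7 (49974865 to 50865255), with 5, 4 and 0 circles at E18 and 1, 10 and 4 at 8w. The ratio of summed densities was 3.61 with an exact counting interval of 1.48 to 9.36 (edgeR adjusted p = 0.732, the value of every gene given here for its small p). Mctp1, a calcium-binding membrane protein, had 5, 2 and 2 against 1, 7 and 5, a ratio of 3.13 (1.24 to 8.29). Kcnh1, a voltage-gated potassium channel, had 1, 3 and 0 against 4, 1 and 4, a ratio of 4.87 (1.36 to 21.7). Scaled to circles per library, Mctp1 did not overlap between the stages, while Nell1 and Kcnh1 did.

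The rest of that side rested on few circles. Dclk2, a kinase that binds microtubules, had 0 circles in each E18 library and 2, 1 and 1 at 8w, at least 2.89-fold higher against a floor of 3 circles over the stage. A230046K03Rik had 0 at E18 and 5 at 8w, all in replicate 2 (at least 3.61-fold higher against that floor). Cd109, a membrane protein that binds TGF-beta, had 0 and 3, again all in 8w replicate 2, and no fold is given. Dnah7a, an axonemal dynein, had 5 and 10 circles in all, but shares sequence with close copies of the gene, so its count is uncertain. Ncoa7, a nuclear receptor coactivator, had 2 and 7, Kif13a, a kinesin, 3 and 8, and Mageb18, of the MAGE family, 3 and 8.

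Lower at 8w was Nedd4l, a ubiquitin ligase that acts on sodium channels (chromosome 18, 64887757 to 65217826), with 14, 3 and 5 circles at E18 and 0, 1 and 0 at 8w. The ratio was 0.0985, with an exact counting interval of 0.00239 to 0.609. Tenm4, a teneurin of cell contacts, had 17, 5 and 3 against 0, 1 and 1, and Slc9a9, a sodium-proton exchanger of endosomes, 12, 4 and 2 against 0, 0 and 1. These 3 genes did not overlap between the stages.

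Another 6 had no circle in any adult library. Atg10, of autophagy, had 6, 2 and 4 circles at E18, and B3galt1, a galactosyltransferase, 5, 5 and 1, which is at least 1.85-fold and 1.69-fold lower at 8w against the floor of 3 circles over the stage. Syn3, a synapsin, had 12 circles in all at E18, Gucy1a2, a subunit of soluble guanylate cyclase, 11, Sergef 11 and Klhl29 10, each with none in 1 or more E18 libraries. Of the 2174 genes, 281 had no circle at 8w and 24 none at E18, and 6.81% lay lower at 8w without overlap between the groups and 2.58% higher. Counts of genes without a circle are not scaled, and the libraries summed to 54797 circles at E18 and 25297 at 8w. With fewer circles, a gene without any is more likely at 8w even at equal density.

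Gene groups that bear on the heart were described by their circles per 10000. Of 11 lists, 2 (18.2%) did not overlap between the stages, both lower at 8w. Glycolysis genes, the sugar-burning pathway that the fetal heart relies on, had 3.12, 7.74 and 2.86 circles per 10000 at E18 and 0, 2.04 and 0 at 8w, from 21 and 3 circles in all. Fibroblast and matrix genes had 17.9, 18.8 and 19.1 against 17.8, 17.0 and 12.04, so 8w replicate 1 nearly reached the lowest embryonic library. The exact permutation p was 0.1 for both and the adjusted value over 11 lists 0.55.

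Genes of contraction and its control overlapped between the stages. Of 40 sarcomere genes, 25 had a circle in the 6 libraries and 8 were tested. Their density was 11.1, 17.7 and 11.4 per 10000 at E18 and 5.09, 9.51 and 15.0 at 8w, and 0 passed in either direction. Neb, which sets thin filament length in skeletal muscle, had 7, 2 and 4 circles against 0, 1 and 0, and Nebl, its cardiac relative, 7, 3 and 2 against 0, 3 and 2. Calcium handling and ion channel genes had 29.2, 27.7 and 31.5 per 10000 against 20.4, 32.6 and 24.1. Their members with the most circles were Ryr3, a calcium release channel (6, 0 and 6 against 0, 7 and 1), and Cacna2d1, a calcium channel subunit (8, 2 and 0 against 1, 3 and 3).

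Cardiac transcription factors had 19.8, 27.7 and 16.2 circles per 10000 at E18 and 5.09, 17.7 and 16.6 at 8w. Esrrg, a nuclear receptor of the switch to oxidative metabolism, had 8, 6 and 3 against 0, 2 and 1, and Foxp1, a forkhead factor of heart development, 7, 5 and 2 against 0, 1 and 5. Fatty acid oxidation, which the adult heart runs on, had 6.52, 4.43 and 8.58 against 10.2, 8.83 and 6.02, with overlap. Its members Cd36, which takes up fatty acids, and Ppargc1a, a coactivator of mitochondrial genes, had 3 and 2 circles at E18 and 2 each at 8w. Of the glycolysis list, Hk1, a hexokinase, had 4 and 1 and Slc2a1, a glucose transporter, 3 and 0.

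The remaining lists overlapped as well, and 0 of their tested members passed. Cell cycle genes had 7.65, 11.1 and 7.63 circles per 10000 against 7.63, 6.11 and 4.51, where Cdk6, a kinase of cell cycle entry, had 8 circles at E18 and 1 at 8w and Pola1, of DNA polymerase alpha, 7 and 0. DNA repair genes had 23.5, 26.6 and 25.8 against 25.4, 29.2 and 19.6, with the most circles in Fhit (34 and 17) and Wwox (19 and 8), which span fragile sites. The list had 83, 24 and 27 circles at E18 and 10, 43 and 13 at 8w, so Fhit and Wwox supplied a large part of its density. Endothelial genes had 9.36, 14.4 and 12.4 against 5.09, 14.3 and 21.1, with Mecom (20 and 12) and Erg (4 and 7) leading. Blood and immune genes had 6.52, 11.1 and 14.3 against 12.7, 4.76 and 6.02, where Cx3cr1, a chemokine receptor with a long gene model in the table, had 7 and 0 and Ikzf2 6 and 1.

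Long neuronal and fragile-site genes, a list chosen for length, gave 213, 198 and 215 circles per 10000 at E18 and 173, 221 and 205 at 8w. Of 50 members 48 had a circle and 47 were tested, with a median log2 change of -0.01 (0 with genes without a circle at their bound), against -0.19 (0) over all 2174 genes. Ptprd, a receptor phosphatase, had 43, 8 and 11 circles against 0, 14 and 5, and Macrod2, which removes ADP-ribose, 32, 3 and 9 against 6, 10 and 3. The other lists with at least 7 tested members had medians from -0.72 (sarcomere) to 0.37 (endothelium), and no set test was made.

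Single circles were dominated by single libraries. At E18 the most split reads, 764, lay on a circle of 776 bp in Polh, a polymerase that copies past DNA damage (chr17:46184770-46185545), in replicate 1. Next were a circle of 838 bp outside the genes of the table (chr14:43886232-43887069, 738 reads) and a circle of 260 bp across Rhbg, an ammonium transporter, and Tsacc (chr3:88283386-88283645, 639 reads), both in replicate 1. At 8w the top circle, of 718 bp in Wdr44 on the X chromosome, had 251 reads in replicate 1, although that library has the fewest reads. It was followed by circles of 121 and 124 bp outside genes (chr15:36961599-36961719 and chr7:71927807-71927930, with 126 and 114 reads in replicate 2). None of these 6 had more than 1 read in a library of the other stage.

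Circles seen in all 6 libraries numbered 5, and 1 was in 5 of them. The Coq7 circle of 162 bp (chr7:118520790-118520951), in a gene of coenzyme Q synthesis, had 5, 1 and 1 reads at E18 and 2, 1 and 6 at 8w. Among these 6 circles, those of 162 bp, 137 bp (6, 5 and 2 against 2, 10 and 3 reads) and 359 bp (12, 11 and 144 against 7, 2 and 1) had 5 or more reads in a library of each stage, and the other 3 did not. Over the 2893 circles in at least 3 of the 9 libraries, edgeR called 0 (0.0%) on split reads, with 134 (4.63%) at an unadjusted p under 0.05. On simulated counts it recovered 0 of 100 circles raised and 0 of 100 lowered by a factor of 64. DESeq2 called 5 of 2402. In 3 of them the 8w reads were 48, 45 and 45, all in 8w replicate 2, in 1 the E18 reads were 148, all in E18 replicate 1, and the fifth had 1 read each in 8w replicates 1 and 3 beside 55 in 3d replicate 3.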

How the data were processed

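Heart samples were digested, treated with alkali and column-purified, and circular DNA was amplified with phi29 polymerase, sonicated and sequenced, per the labels' protocols. Rolling-circle amplification favours some lengths, and amplified reads are not independent molecules, so Wilson and exact 95% intervals cover counting error only. The authors deposited a count of split reads per circle and library, with circles found by Circle-Map per the file headers (its version is not given in the sources used here). Tools and builds in the submitters' processing notes are cutadapt 1.9.1, BWA 0.7.12, SAMtools 1.9, bedtools 2.27.1, edgeR 0.6.9 and the builds GRCm38 and mm10. Lines with the same location (154938 lines) were joined into 149584 circles, and a single split read was enough to count a circle as present.

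Values per library were compared by exact two-sided permutation over the 20 ways to part 6 libraries. Counts per gene, 5 Mb window (10 or more circles) and circle (3 or more libraries) were tested with edgeR 4.0.16 (quasi-likelihood, R 4.3.3) over 9 libraries, scaled by library totals, with Benjamini-Hochberg adjustment and a threshold of 0.05, after tests on simulated counts. DESeq2 1.42.0, TMM factors, read minimums, thinning to 11377 split reads, other filters, the 6 libraries alone, the replicate block and leaving out libraries were alternatives. The text names the 10 genes and 5 windows of smallest p in each direction, the 2 members of each list with the most circles, circles in 5 or more of the 6 libraries, the 3 circles with the most reads in a stage, up to 5 genes held whole by circles of 2 or more reads and up to 4 gene starts held at both stages. An item that this rule selects is not reported here. Members, lists and rules were chosen with earlier results of these data known. Measures added later are named as such, and the look-up of well covered circles elsewhere was also added later.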

Additional observations from a re-analysis of the deposited data

How the results depend on the processing

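Of 87 results with 999 alternative values, 922 kept their direction and call, and 49 changed sign, all among the single-read share, chromosome shares and genes that passed no test. The 63 alternatives of the length classes changed no sign. The difference in circle number, 8w over E18, was -1.12 on the log2 scale, -0.26 after thinning to equal split reads and -1.79 to -0.21 leaving out libraries. The difference in the single-read share was 15.1 points, turned to -4.99 after thinning and ranged from -1.42 to 25.3 leaving out libraries. The cause was not tested. Windows called numbered 2 in the fit reported, 2 with TMM factors, 0 with DESeq2 (26 at an unadjusted p under 0.05), 1 with the 6 libraries alone, 1 with a minimum of 2 split reads, 0 of 2546 with 1 Mb windows and 0 to 1 leaving out libraries. Circles called numbered 5 with DESeq2. TMM factors moved the median log2 change of all genes from -0.19 to -0.62 and the genes above 0 from 1007 to 666 of 2174.

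Deviations of same-numbered libraries from their stage means had correlations of -0.021, 0.078 and 0.045 over 535 windows. Those of the other pairs ran from -0.070 to 0.039. Window counts of single libraries carry much counting error, so these values cannot decide whether the numbers pair the libraries. With the replicate block edgeR called 0 genes (78 at an unadjusted p under 0.05), 0 windows (44) and 0 circles (3), and Macrod2 had 0.15.

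Chromosome differences that changed sign, in points, were -0.424 (1), -0.125 (2), 0.129 (3), -0.203 (8) and 0.169 (14) with 5 split reads, 0.0515 (3) and 0.0103 (Y) after thinning and 0.00102 (Y) with 2 split reads. Leaving out libraries they spanned -0.134 to 0.154 (1), -0.207 to 0.215 (2), -0.208 to 0.117 (3), -0.0810 to 0.118 (6), -0.152 to 0.350 (8), -0.244 to 0.0156 (9), -0.415 to 0.0100 (13), -0.0314 to 0.222 (18) and -0.0232 to 0.00738 (Y). Log2 changes of genes that turned were 0.57 (Nebl), 0.26 (Foxp1), -0.36 (Fhit) and 0.11 (Ltbp1) with circles of 80 to 450 bp, 0.11 (Nebl), 0.11 (Foxp1) and -0.092 (Fhit) with 2 split reads, -0.32 (Fhit) and -0.090 (Mecom) with TMM and -0.045 (Fhit) with DESeq2. Leaving out libraries they spanned -0.43 to 0.093 (Nebl), -1.16 to 1.19 (Ryr3), -2.14 to 0.87 (Foxp1), -0.20 to 0.90 (Cd36), -0.057 to 0.54 (Fhit), -0.85 to 0.11 (Wwox), -0.18 to 1.60 (Lama2), -4.98 to -0.18 (Ltbp1), -0.18 to 0.63 (Mecom) and -0.40 to 0.29 (Macrod2).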

Other observations

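Well covered circles of E18 replicate 1, the deepest of the 6 libraries, were looked up in the adult libraries. Of its 4585 circles over 650 bp with 5 or more split reads, 89 (1.94%) were in 8w replicate 1, 65 (1.42%) in 8w replicate 2 and 52 (1.13%) in 8w replicate 3, and 73, 53 and 40 of these had a single read there. Of its 6217 circles under 250 bp with 5 or more split reads, 111 (1.79%), 100 (1.61%) and 99 (1.59%) were found in the same libraries. Of these short circles 96, 35 and 47 had a single read there. Adult libraries also held long circles of neonatal hearts. Of 11372 circles over 650 bp with 5 or more split reads in 3d replicate 3, 170 (1.49%), 75 (0.660%) and 90 (0.791%) were in 8w replicates 1 to 3. The source of these shared circles was not tested.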
